A study of Mus musculus with 6 samples.

Results

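The 41 genes described here code for the glutathione, glutaredoxin, thioredoxin and peroxidase systems of the mouse, together with the transcription factor NRF2 and its regulator KEAP1. They were found by gene symbol among the 53465 genes of a count table from RNA sequencing of mouse liver tumour cell lines, and all 41 symbols matched 1 gene each. The study asked how transcription differs in liver tumour cells that have lost Kdm6a (also called Utx), a histone H3 lysine 27 demethylase of the MLL3/MLL4 COMPASS-like complex. Tumours had been raised in wild-type C57BL/6 mice by hydrodynamic tail vein injection of a transposon that expresses Myc together with a plasmid for Cas9 and a guide RNA, and cell lines were grown from the digested tumours. The 3 Myc_Utx lines (2A, 2B and 2D) came from tumours with a guide against Kdm6a, and the 3 Myc_p53 lines (1, 2 and 3), the controls, came from p53 knockout tumours. Both groups carry the Myc transposon, and no group has Myc alone, so loss of Kdm6a and loss of p53 cannot be told apart in any difference given here. The study describes the 3 lines of a group as independent and tumour-derived, so n = 3 per group throughout. Whether any lines shared a mouse or a guide is not given in the sources used here.

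The genes targeted by the guides were read first. Trp53, the gene for p53, stood at 294, 295 and 276 CPM (counts scaled to the TMM-normalised library size) in the Myc_Utx lines and at 32.4, 34.5 and 35.8 CPM in the Myc_p53 lines, lower in every line labelled as its knockout. Kdm6a mRNA did not separate the groups, with 39.7, 45.7 and 49 CPM against 69.5, 64.5 and 42.5 CPM (log2 fold change -0.39 ± 0.22 SE, adjusted p = 0.243). The labels and the study's account of this experiment name Kdm6a (Utx) as the guide target of these lines. In contrast, 1 passage of the study's methods names Mll3 (Kmt2c), and the deposited counts also carry the name MLL3. Kmt2c was at 69.6, 77 and 86.6 CPM in Myc_Utx lines and at 148, 116 and 121 CPM in Myc_p53 lines (log2 fold change -0.73 ± 0.15, adjusted p = 0.0289, or -0.36 and 0.196 with offsets for transcript length). Groups follow the labels. Between 4656103 and 5473042 reads were counted in Myc_Utx lines and between 5370608 and 6937497 in Myc_p53 lines.

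Albumin, the main secreted protein of hepatocytes, had 4 to 26 counts in Myc_Utx lines and 7 to 16 in Myc_p53 lines. The 10 hepatocyte markers measured summed to 3.34 to 95.5 CPM and 54.1 to 1220 CPM, where the highest sum came mostly from the keratins Krt8 and Krt18. Of the 10, 2 were lower and 1 higher without overlap in Myc_Utx lines, beside 20.9% and 21.1% of all genes tested. Those shares also stand beside the bile duct and fibroblast counts below. They cover genes with enough counts to be tested, whereas markers were counted without that filter. The 5 bile duct markers summed to 510 to 1440 CPM in Myc_Utx lines and 153 to 1460 CPM in Myc_p53 lines, mostly from Spp1 where the sum was highest. Of the 5, 2 (Krt7 and Krt19) were lower and 0 higher without overlap in Myc_Utx lines. The 8 fibroblast or stellate cell markers summed to 1950 to 2690 CPM and 41.2 to 3160 CPM, mostly from Col3a1 where the sum was highest, with 1 of them lower and 0 higher without overlap in Myc_Utx lines. Markers of macrophages moved with the groups: 12 of the 14 were lower without overlap in Myc_Utx lines, beside 20.9% of all genes tested. Of the 14, 7 had no count in any Myc_Utx line, and the list summed to 2.79 to 6.37 CPM there against 48.9 to 131 CPM in Myc_p53 lines. Lyz2, the lysozyme of macrophages, had 0, 5 and 0 counts against 204, 104 and 337. By the study's methods, the cultures were passaged until no other cell type could be seen in them. The part of these markers in the differences below was not tested, and in such bulk samples fewer cells of a type and less RNA per cell cannot be told apart.

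Glutathione, a tripeptide that is the most abundant thiol of the cell, and thioredoxin, a small protein with a reactive pair of cysteines, are the carriers of reducing power for most antioxidant enzymes. Glutathione is made by glutamate-cysteine ligase and glutathione synthetase, spent by peroxidases, transferases and glutaredoxins, and recycled by glutathione reductase with NADPH, whereas thioredoxin serves the peroxiredoxins and is recycled by thioredoxin reductase. NRF2, coded by Nfe2l2, switches on many of these genes through the antioxidant response element, while KEAP1 marks NRF2 for destruction and BACH1 occupies the same sites as a repressor. The liver is known for a high content of both systems and for its handling of drugs, haem and iron.

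The antioxidant genes changed in both directions, and more were higher than lower in Myc_Utx lines. Of the 41 genes, 38 had enough counts to be tested, and with the quasi-likelihood F test of edgeR, adjusted by the Benjamini-Hochberg method over all 11510 genes tested, 7 were higher (Nfe2l2, Hmox1, Gclc, Glrx3, Glrx5, Txn1 and Prdx3) and 2 were lower (Gclm and Cat) in Myc_Utx lines, with adjusted p below 0.05. Across the whole table tested, 6.99% were higher and 7.69% lower by that rule, against 18.4% and 5.26% of the 38. The median log2 fold change of the 38 genes was 0.34, beside a median of -0.012 over all genes, and 29 of them (76.3%) had a positive value, beside 49.2% of all genes. With length offsets 25 of the 38 were positive, and 24 with length and GC offsets. The median of the 38 was then 0.334 and 0.354, beside 0.028 and 0.027 over all genes. The 3 lines of each group did not overlap for 14 of the 38 genes in the higher direction (36.8%, beside 21.1% of all genes) and for 4 in the lower direction (10.5%, beside 20.9% of all genes). In either direction, 42.0% of all genes did not overlap. An unadjusted p under 0.05 was reached by 17 of the 38 and by 35.0% of all genes. Only Glrx3, Hmox1 and Gclc among the genes that rose, and Cat among those that fell, passed a 2-fold change.

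**Figure D1:**
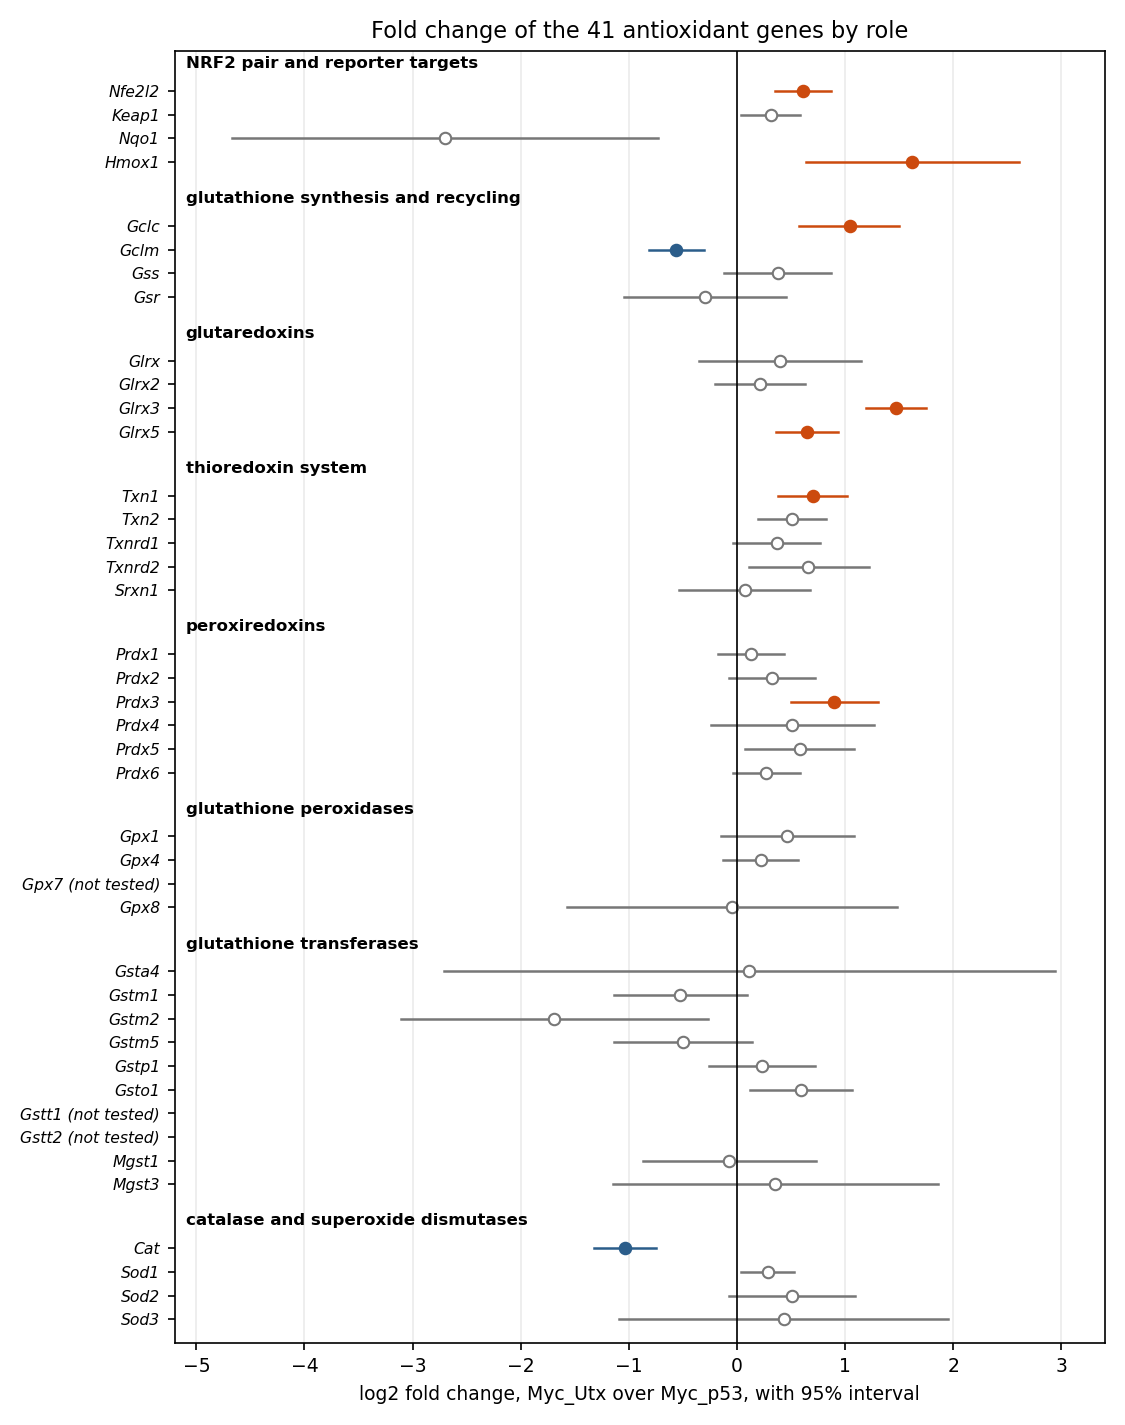
Log2 fold change of each of the 41 antioxidant genes in Myc_Utx over Myc_p53 lines with its 95% interval, grouped by role. Filled orange points are the 7 genes higher and filled blue points the 2 genes lower at an adjusted p under 0.05, open grey points are genes past neither, and 3 genes with too few counts carry no point.

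The values of the 9 genes by line show how far the groups stood apart. Glrx3 and Cat had the smallest adjusted p of the set, and Hmox1 had the widest spread within groups.

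**Figure D2:**
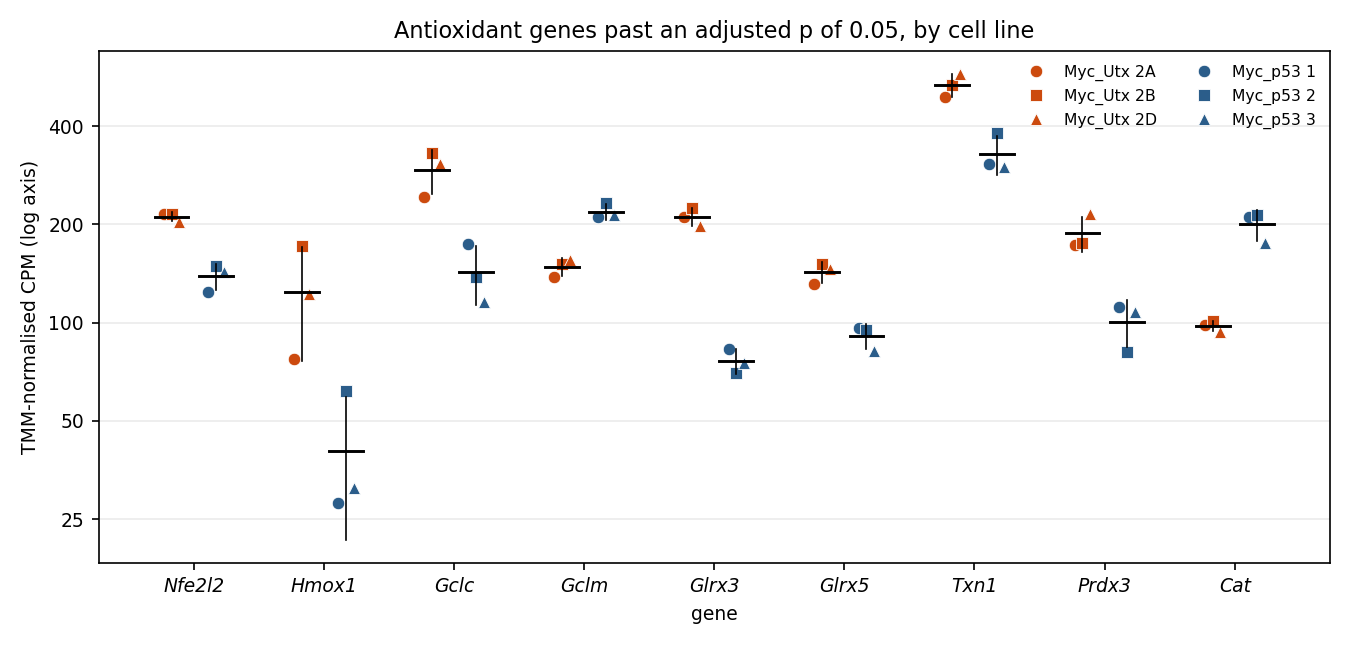
TMM-normalised CPM (log axis) of the 9 genes past an adjusted p of 0.05, with 1 symbol per cell line, a horizontal bar at the group mean and a vertical bar of 1 SD (n = 3). Orange Myc_Utx and blue Myc_p53 symbols do not overlap for any of the 9 genes, with Glrx3 at 198 to 225 against 69.9 to 83.1 CPM and Cat at 93.7 to 101 against 175 to 214 CPM.

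Nfe2l2 itself (ENSMUSG00000015839, chromosome 2, 75675513 to 75704641, minus strand, GRCm38) rose. It measured 215, 215 and 204 CPM in Myc_Utx lines and 124, 149 and 143 CPM in Myc_p53 lines, a log2 fold change of 0.61 ± 0.11 (adjusted p = 0.0227). Every Myc_Utx line lay above every Myc_p53 line. Keap1, coding for the sensor that holds NRF2 down, measured 72 ± 2.88 CPM against 58.2 ± 2.17 CPM (mean ± SD), and although the lines did not overlap, its log2 fold change of 0.31 ± 0.11 had an adjusted p of 0.108. Within each line, Nfe2l2 counts were 3.12, 2.96 and 2.75 times those of Keap1 in Myc_Utx lines and 2.22, 2.46 and 2.46 times in Myc_p53 lines (difference of log2 ratios 0.30, two-sided exact permutation p = 0.1, the smallest that 3 lines against 3 can give). NRF2 is regulated mainly as a protein, which was not measured here.

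The reporter genes most often read for NRF2 activity had log2 fold changes of opposite sign, and only that of Hmox1 passed the test. Hmox1 (ENSMUSG00000005413, chromosome 8, 75093621 to 75100589), which codes for haem oxygenase-1, the enzyme that opens haem and frees its iron, measured 77.4, 172 and 122 CPM in Myc_Utx lines and 28.1, 61.9 and 31.1 CPM in Myc_p53 lines. The groups did not overlap, but the lowest Myc_Utx line and the highest Myc_p53 line were close. The log2 fold change was 1.62 ± 0.41 (adjusted p = 0.0474), and the adjusted p was above 0.05 with total counts only (0.0503), with length offsets (0.0701) and with length and GC offsets (0.0673). Nqo1, coding for the quinone reductase that is a standard readout of NRF2, was barely expressed, with 2, 6 and 5 counts in Myc_Utx lines and 14, 66 and 22 in Myc_p53 lines. Its CPM of 0.399, 1.12 and 1.11 against 2.21, 12.2 and 3.14 did not overlap, and its log2 fold change of -2.70 ± 0.82 missed the threshold (adjusted p = 0.0705, or 0.0262 with DESeq2). Without Myc_p53 2, the line with the most Nqo1, the log2 fold change was -1.59 (adjusted p = 0.104).

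Among the promoters of these genes, windows of 300 bases (250 before to 50 after the start, RefSeq, GRCm38.p6) were given for 34 of the 41. The 9-base core of the antioxidant response element, TGACNNNGC on either strand, was found in windows of 8 of these 34 genes (23.5%), beside 14.0% of the 27025 genes with a window. By window, 17.8% of the 45 windows of these genes and 12.4% of all 32851 windows held it. The matches fell in Nfe2l2, Sod1, Gclm, Gstm5, Mgst1, Prdx1, Txnrd1 and Srxn1, of which Nfe2l2 rose, Gclm fell and the other 6 were not called. Hmox1 and Gclc had no window, and elements farther from a start than the window were not searched. The stretches around 4 of the matches are shown, for the NRF2 gene itself, the ligase subunit that fell, and the peroxiredoxin and the thioredoxin reductase with the most counts. Capitals mark the core, read on the strand of the gene.
Nfe2l2, chr2:75704870-75704913, minus strand: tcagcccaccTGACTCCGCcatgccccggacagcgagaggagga
Gclm, chr3:122245398-122245456, plus strand: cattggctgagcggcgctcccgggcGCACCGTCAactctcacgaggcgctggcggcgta
Prdx1, chr4:116685441-116685499, plus strand: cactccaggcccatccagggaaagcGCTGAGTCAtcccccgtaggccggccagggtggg
Txnrd1, chr10:82859089-82859147, plus strand: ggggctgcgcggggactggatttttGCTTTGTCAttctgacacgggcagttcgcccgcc
In Nfe2l2 the core begins 240 bases before a start and reads as written, whereas in Gclm (134 bases before), Prdx1 (133 bases) and Txnrd1 (92 bases) it reads as its reverse complement.

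Glutathione synthesis held 1 gene that rose and 1 that fell, and they code for the subunits of the same enzyme. Gclc (ENSMUSG00000032350, chromosome 9, 77754535 to 77794485), the catalytic subunit of glutamate-cysteine ligase and the rate-limiting step of glutathione synthesis, measured 243, 330 and 306 CPM in Myc_Utx lines and 174, 138 and 116 CPM in Myc_p53 lines (log2 fold change 1.04 ± 0.19, adjusted p = 0.0245). Gclm (ENSMUSG00000028124, chromosome 3, 122245557 to 122270732), the modifier subunit, which eases feedback inhibition of the enzyme by glutathione, measured 138, 151 and 156 CPM against 210, 233 and 213 CPM (log2 fold change -0.56 ± 0.10, adjusted p = 0.0240). Every Myc_Utx line was above every Myc_p53 line for Gclc and below every one for Gclm. With length offsets the log2 fold change of Gclm was -0.43 and its adjusted p 0.0541.

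The ratio of the subunits within a line needs no scaling between libraries. Gclc counts were 1.75, 2.18 and 1.96 times those of Gclm in Myc_Utx lines and 0.829, 0.594 and 0.544 times in Myc_p53 lines, so the groups did not overlap. Divided by transcript length, the ratio was 2.93, 3.65 and 3.28 against 1.38, 0.992 and 0.908. The log2 ratios differed by 1.6 (two-sided exact permutation p = 0.1, the smallest possible). Since Gclc was higher and Gclm lower in every Myc_Utx line, the ratio could not overlap, so its p adds no support. No 50-base stretch of Gclc occurs in another gene, and 4.6% of those of Gclm do, mostly in Gm17494 on the opposite strand.

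**Figure D3:**
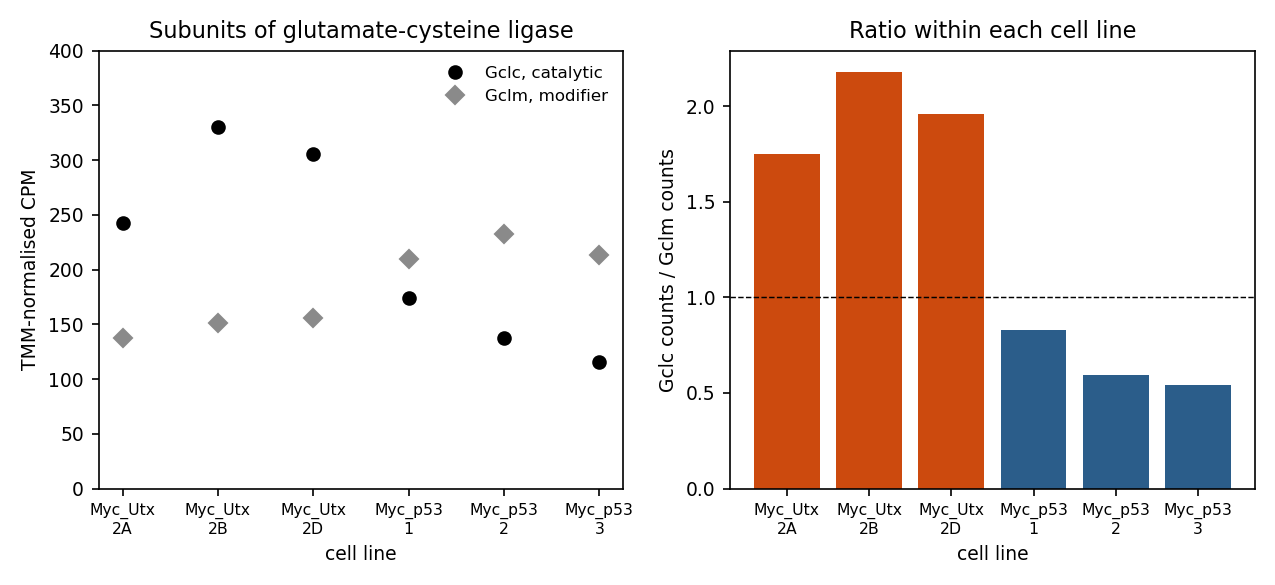
Left, TMM-normalised CPM of Gclc (black circles) and Gclm (grey diamonds) in each of the 6 cell lines; right, the ratio of their counts in each line, with a dashed line at 1. The 3 Myc_Utx bars (orange) stand at 1.75 to 2.18 and the 3 Myc_p53 bars (blue) at 0.544 to 0.829.

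The other enzymes of this group did not pass. Gss, coding for glutathione synthetase, which adds glycine in the last step, ranged from 48.3 to 74.4 CPM in Myc_Utx lines and from 42.6 to 53.6 in Myc_p53 lines (log2 fold change 0.38, adjusted p = 0.239). Gsr, coding for glutathione reductase, measured 151, 175 and 146 CPM against 228, 105 and 245 CPM, so Myc_p53 2 fell below and the other two Myc_p53 lines above all Myc_Utx lines. Its log2 fold change was -0.30 (adjusted p = 0.531). With 1 line left out it passed in 1 of 6 fits, that without Myc_p53 2 (-0.59, adjusted p = 0.0350). Without Myc_p53 3 it was -0.092 (adjusted p = 0.877).

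Glutaredoxins, which use glutathione to reduce protein disulphides or to pass on iron-sulphur clusters, had the largest ratio of summed levels among the 8 role groups. They summed to 408 ± 26.2 CPM in Myc_Utx lines and 211 ± 7.64 CPM in Myc_p53 lines, a ratio of 1.93, and 2 of the 4 genes rose by the test. Both genes that rose code for the monothiol glutaredoxins of iron-sulphur cluster handling, Glrx3 in the cytosol and Glrx5 in mitochondria. Glrx3 (ENSMUSG00000031068, chromosome 7, 137437614 to 137468594) measured 210, 225 and 198 CPM in Myc_Utx lines and 83.1, 69.9 and 75.4 CPM in Myc_p53 lines. This was a log2 fold change of 1.47 ± 0.12 (95% interval 1.19 to 1.75, adjusted p = 0.00692), the smallest adjusted p of the 38 genes, and the lowest Myc_Utx line was far above the highest Myc_p53 line. Of its 50-base stretches, 15.1% also occur elsewhere, mainly in the pseudogene Gm12669, which had 134 counts over all 6 lines. Glrx5 (chromosome 12, 105032688 to 105042906) measured 131, 151 and 146 CPM against 96.1, 94.9 and 82.1 CPM (log2 fold change 0.65 ± 0.12, adjusted p = 0.0240), again with no overlap. Counts of Glrx3 were 1.61, 1.49 and 1.36 times those of Glrx5 in Myc_Utx lines and 0.865, 0.736 and 0.918 times in Myc_p53 lines. The dithiol glutaredoxins Glrx, of the cytosol, and Glrx2, of mitochondria, overlapped between groups, with log2 fold changes of 0.40 (95% interval -0.35 to 1.15, adjusted p = 0.398) and 0.21 (-0.20 to 0.63, adjusted p = 0.422).

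The thioredoxin system had positive log2 fold changes for all 5 genes, with a median of 0.51, though that of Srxn1 turned negative with length offsets (-0.0174). One of the 5, Txn1 (chromosome 4, 57943373 to 57956411), the cytosolic thioredoxin, passed the test. It measured 491, 536 and 577 CPM in Myc_Utx lines and 307, 381 and 299 CPM in Myc_p53 lines (log2 fold change 0.70 ± 0.13, adjusted p = 0.0258), with every Myc_Utx line above every Myc_p53 line. With length offsets its log2 fold change was 0.42 (adjusted p = 0.0719). Txn2, the mitochondrial thioredoxin, measured 153, 178 and 178 CPM against 133, 120 and 105 CPM (log2 fold change 0.51 ± 0.13), and lay just above the threshold in edgeR (adjusted p = 0.0504) and below it in DESeq2 (0.0126). The reductases Txnrd1, of the cytosol, and Txnrd2, of mitochondria, also did not overlap between the groups, but had adjusted p of 0.177 and 0.0986. Txnrd1 measured 309, 454 and 316 CPM against 287, 278 and 271 CPM, where Myc_Utx 2B alone carried most of the difference in means. Srxn1, coding for sulfiredoxin, which repairs over-oxidised peroxiredoxins and is a known NRF2 target, measured 31.5 ± 9.13 against 30.1 ± 5.25 CPM (log2 fold change 0.07, 95% interval -0.54 to 0.67, adjusted p = 0.868).

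Peroxiredoxins, the abundant peroxidases that thioredoxin keeps reduced, summed to 1570 ± 52.5 CPM in Myc_Utx lines and 1260 ± 76.4 CPM in Myc_p53 lines. All 6 had positive log2 fold changes, from 0.13 to 0.90, Prdx1 turning to -0.0039 with length and GC offsets, and 1 passed. That gene was Prdx3 (chromosome 19, 60864051 to 60874556), the peroxiredoxin of the mitochondrial matrix, at 173, 176 and 215 CPM against 112, 81.6 and 108 CPM (log2 fold change 0.90 ± 0.17, adjusted p = 0.0239). The lowest Myc_Utx line stood well above the highest Myc_p53 line. Prdx5, which resides in mitochondria, peroxisomes and the cytosol, measured 79.4, 81.3 and 124 CPM against 65.1, 56.2 and 69.4 CPM (log2 fold change 0.58 ± 0.21, adjusted p = 0.106), and shares 15.5% of its 50-base stretches with Trmt112 on the opposite strand. Cytosolic Prdx1 and Prdx2 had log2 fold changes of 0.13 (adjusted p = 0.521) and 0.32 (adjusted p = 0.212), Prdx4 of the endoplasmic reticulum 0.51 (adjusted p = 0.288), and Prdx6, which works with glutathione rather than thioredoxin, 0.27 (adjusted p = 0.194). The 95% interval of Prdx1, -0.18 to 0.43, bounds any change of this gene to well under 2-fold.

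None of the 3 glutathione peroxidases tested passed in edgeR or in DESeq2, and 0 had an unadjusted p under 0.05. Gpx1, the cytosolic enzyme that removes hydrogen peroxide, measured 142, 110 and 128 CPM in Myc_Utx lines and 63.7, 126 and 86.4 CPM in Myc_p53 lines (log2 fold change 0.46, adjusted p = 0.244). Gpx4, which reduces lipid peroxides in membranes and guards against ferroptosis, measured 121 ± 18.6 against 104 ± 5.9 CPM (log2 fold change 0.22, 95% interval -0.13 to 0.56, adjusted p = 0.327), and shares 34.7% of its 50-base stretches with the pseudogene Gpx4-ps2. Gpx8 of the endoplasmic reticulum ranged from 4.9 to 30.6 CPM within Myc_p53 lines (log2 fold change -0.05, adjusted p = 0.967). Gpx7, a related enzyme of the endoplasmic reticulum, was not tested because of low counts. It had 0 counts in every Myc_Utx line and 3, 50 and 37 in Myc_p53 lines. The mean of the Myc_p53 lines was at least 8.21-fold higher against a floor of 3 counts per line, although Myc_p53 1 stood at that floor. Without the filter on low counts the adjusted p of Gpx7 was 0.0325.

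Glutathione transferases, which couple glutathione to drugs and other electrophiles, showed no gene past the edgeR threshold among the 8 tested (1 in DESeq2, and 2 at an unadjusted p under 0.05), with 4 positive and 4 negative log2 fold changes and a median of 0.02. Their summed levels were 682 ± 85.7 CPM in Myc_Utx lines and 638 ± 31 CPM in Myc_p53 lines. Gsto1, of the omega class, measured 233, 375 and 293 CPM against 172, 217 and 209 CPM and did not overlap (log2 fold change 0.59 ± 0.20, adjusted p = 0.0870, or 0.0395 with DESeq2). The class mu genes pointed the other way: Gstm2 measured 5.98, 2.62 and 1.56 CPM against 16.1, 10.8 and 6.13 CPM (log2 fold change -1.69 ± 0.59, adjusted p = 0.0991), and Gstm1 and Gstm5 had log2 fold changes of -0.53 (adjusted p = 0.194) and -0.50 (adjusted p = 0.228). Of the class theta genes, Gstt1 had 0 counts in every Myc_Utx line and 14, 20 and 5 in Myc_p53 lines (adjusted p = 0.0318 without the filter on low counts). The Myc_p53 mean was at least 3.63-fold higher against the floor, with Myc_p53 3 close to that floor. Gstt2 had 1, 1 and 0 counts against 15, 1 and 4, a ratio of 7.92 with a counting interval of 1.92 to 69.9 that leaves out the spread between lines, and most of the Myc_p53 counts came from 1 line (adjusted p = 0.207 without the filter on low counts). Gsta4, which clears the lipid aldehyde 4-hydroxynonenal, varied widely, from 0.223 to 24.2 CPM within Myc_Utx lines and from 4.58 to 19.8 CPM within Myc_p53 lines (adjusted p = 0.956). Gstp1, of the pi class, stood at 0.23 on the log2 fold change scale (adjusted p = 0.464) and shares 33.7% of its 50-base stretches with Gstp2, while the membrane-bound Mgst1 and Mgst3 had -0.07 (adjusted p = 0.904) and 0.35 (adjusted p = 0.715).

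Catalase, the haem enzyme of peroxisomes that splits hydrogen peroxide, fell in Myc_Utx lines, which lay close together. Cat (ENSMUSG00000027187, chromosome 2, 103453849 to 103485160, minus strand) measured 98.3, 101 and 93.7 CPM in Myc_Utx lines and 211, 214 and 175 CPM in Myc_p53 lines, a log2 fold change of -1.04 ± 0.12 (95% interval -1.32 to -0.75, adjusted p = 0.0130). It shares no 50-base stretch with another gene. Gpx1 removes the same substrate in the cytosol, and Cat counts were 0.692, 0.915 and 0.732 times those of Gpx1 in Myc_Utx lines and 3.32, 1.70 and 2.03 times in Myc_p53 lines (difference of log2 ratios -1.54, two-sided exact permutation p = 0.1, the smallest possible). Cat alone was already lower in every Myc_Utx line and enters this ratio, so the p of the ratio adds no support. The superoxide dismutases, which make hydrogen peroxide from superoxide, did not pass. Cytosolic Sod1 measured 227 ± 14.6 against 187 ± 8.39 CPM without overlap (log2 fold change 0.29 ± 0.10, adjusted p = 0.1), a direction that turned with length offsets (-0.0381). Mitochondrial Sod2 had a value of 0.51 (adjusted p = 0.184). Extracellular Sod3 measured 46.1, 38 and 28.7 CPM against 16.6, 57.6 and 9.98 CPM, with Myc_p53 2 above all other lines (log2 fold change 0.43, adjusted p = 0.661). With 1 line left out Sod3 passed in 1 of 6 fits, that without Myc_p53 2 (1.50, adjusted p = 0.0385). Without Myc_p53 3 its log2 fold change was 0.0238 (adjusted p = 0.98).

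The 150 bases before the RefSeq start of the genes with the smallest adjusted p in each direction, Glrx3 and Cat, are shown for their base composition and for CCAAT boxes, which are in capitals (CCAAT, or ATTGG on the other strand).
Glrx3, chr7:137437423-137437572, plus strand: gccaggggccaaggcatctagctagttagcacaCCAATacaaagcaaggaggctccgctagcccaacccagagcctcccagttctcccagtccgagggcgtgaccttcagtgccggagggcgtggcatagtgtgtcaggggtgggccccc
Cat, chr2:103485154-103485303, minus strand: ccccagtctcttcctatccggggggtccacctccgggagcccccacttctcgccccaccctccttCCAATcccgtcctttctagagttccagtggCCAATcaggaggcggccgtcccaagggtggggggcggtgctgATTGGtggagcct
The Cat stretch held 3 boxes, beginning 85, 55 and 13 bases before the start, and the Glrx3 stretch held 1, beginning 117 bases before it. At least 1 box lay in the 150 bases of 24.5% of all windows, and neither stretch held the antioxidant core.

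Leaving out 1 line at a time kept the sign of all 9 called genes in every one of the 6 fits, but no call passed in all of them. Nfe2l2, Gclc, Gclm, Glrx5 and Prdx3 each had an adjusted p above 0.05 in 4 of the 6 fits, those without Myc_Utx 2A, 2B or 2D or Myc_p53 3, where it ran from 0.0628 for Gclm to 0.0904 for Glrx5. Txn1 passed only without Myc_p53 2 (0.0172) and Hmox1 only without Myc_p53 2 (0.0252), with 0.0576 to 0.0948 and 0.0734 to 0.132 in their other fits. Cat had 0.0614, 0.0568 and 0.0606 without Myc_Utx 2A, 2B and 2D and passed in the other three. Glrx3 passed in 5 of 6 fits and had 0.0518 without Myc_Utx 2A. Log2 fold changes moved less than these p-values, Glrx3 running from 1.41 to 1.53 and Cat from -1.13 to -0.98. Over all genes, the calls fell in the same fits to as few as 3 higher and 1 lower without Myc_Utx 2A.

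**Figure D4:**
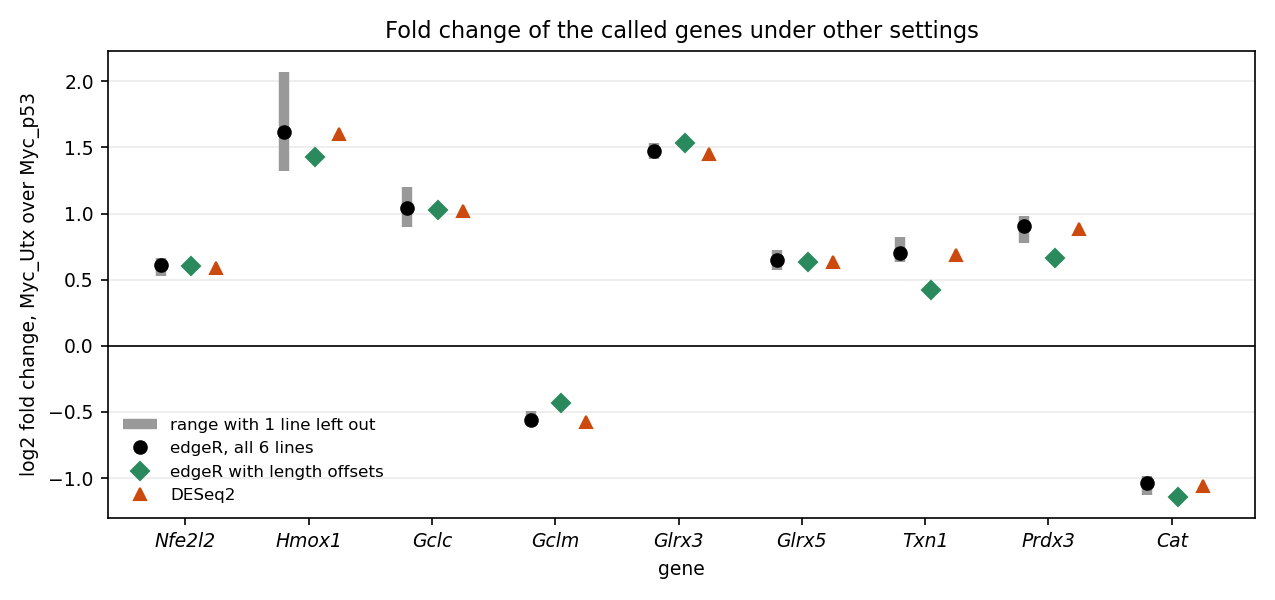
Log2 fold change of the 9 called genes in edgeR with all 6 lines (black circles), edgeR with length offsets (green diamonds) and DESeq2 (orange triangles), with a grey bar over the range when 1 line was left out. No gene crosses 0, with Glrx3 between 1.41 and 1.53 and Hmox1 between 1.32 and 2.07 when 1 line was left out.

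To rank the genes by level, CPM were divided by transcript length in kilobases. Txn1 and Sod1 ranked first and second of the 41 in both groups, with Txn1 at 509 CPM per kilobase in Myc_Utx and 313 in Myc_p53 lines and Sod1 at 352 and 289, followed in Myc_Utx lines by Gstp1 and Prdx1, both at 182. Cat went from rank 8 in Myc_p53 lines to rank 21 in Myc_Utx lines, at 76.6 and 37.3 CPM per kilobase. Hmox1 went the other way from rank 23 to 12 (23.1 to 70.9) and Glrx3 from rank 26 to 18 (15.2 to 42.1). Neighbours such as Gstp1 and Prdx1 did not differ beyond their spread, with coefficients of variation of 20.4% and 6.2% in Myc_Utx lines. The table's transcript lengths of Sod1, Sod2 and Gstp1 (646, 3824 and 757 bases) are well under their GENCODE M21 exon lengths (3970, 10008 and 1548 bases). Their levels per kilobase and their log2 fold changes with length offsets rest on the table's lengths, and which length fits the counting was not tested. The coefficient of variation was under 20% in both groups for 15 of the 38 genes tested and over 50% in a group for 6 of them.

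Beyond the 41, 98 other genes of the same pathways were in the table, of which 78 were tested. Of the 78, 12 were higher (15.4%) and 9 lower (11.5%) in Myc_Utx lines, beside 6.99% and 7.69% of all genes tested. Counts in the lists that follow are to be read beside these shares of all genes. Counts in DESeq2 stand beside its own shares of all genes, 11% higher and 13.2% lower. Counts at an unadjusted p under 0.05 stand beside 35.0% of all genes in either direction. Among 9 NRF2 partners tested, none was higher (0 in DESeq2, and 0 at an unadjusted p under 0.05) and 3 were lower. These were Bach1 (28.1, 28.6 and 23.2 against 60.5, 55 and 53.5 CPM, log2 fold change -1.08 ± 0.15, adjusted p = 0.0164), its relative Bach2 (-2.91, adjusted p = 0.0277) and Mafg, the small MAF protein that pairs with both NRF2 and BACH1 (-0.51, adjusted p = 0.0308). Nfe2l2 counts were 7.65, 7.52 and 8.82 times those of Bach1 in Myc_Utx lines and 2.05, 2.70 and 2.67 times in Myc_p53 lines (difference of log2 ratios 1.70, two-sided exact permutation p = 0.1). Since Nfe2l2 was higher and Bach1 lower in every Myc_Utx line, this ratio could not overlap, so its p adds no support.

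Of 16 other known NRF2 targets, 5 were higher and 2 lower. The largest rises were in Ephx1, a microsomal epoxide hydrolase (log2 fold change 3.09, adjusted p = 0.0210), in Blvrb, a biliverdin reductase that acts downstream of haem oxygenase (1.34, adjusted p = 0.0482), and in Ftl1, the ferritin light chain (1.30 ± 0.15, adjusted p = 0.0130). Slc48a1, a haem transporter (1.17, adjusted p = 0.0177), and Fth1, the ferritin heavy chain (0.92, adjusted p = 0.0250), are named after their values were seen. Other genes of haem and iron handling in the same lists did not pass, with log2 fold changes of 0.44 for the biliverdin reductase Blvra (adjusted p = 0.22), -0.24 for the ferrochelatase Fech (adjusted p = 0.433) and -1.47 for the iron exporter Slc40a1 (adjusted p = 0.134). Ftl1 measured 1450, 1520 and 1850 CPM against 722, 664 and 567 CPM, with every Myc_Utx line above every Myc_p53 line. The genes that fell were Cbr1, a carbonyl reductase (-2.27 ± 0.30, adjusted p = 0.0163), and Ugdh, which makes UDP-glucuronate (-1.11, adjusted p = 0.0463).

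**Figure D5:**
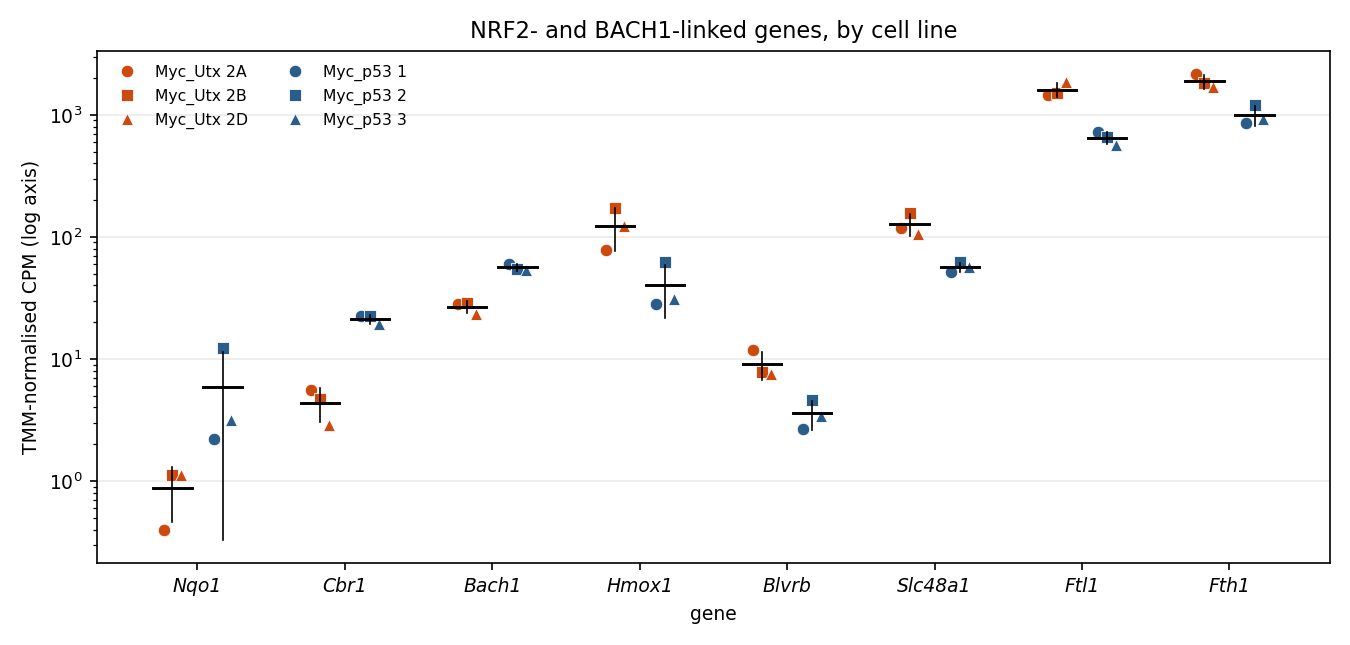
TMM-normalised CPM (log axis) of 8 genes linked to NRF2 or BACH1, chosen for this plot after their values were seen, with 1 symbol per cell line, a horizontal bar at the group mean and a vertical bar of 1 SD (n = 3). Nqo1, Cbr1 and Bach1 lie lower in Myc_Utx lines (orange) and Hmox1, Blvrb, Slc48a1, Ftl1 and Fth1 lie higher, without overlap between groups, and Nqo1 did not pass the adjusted p.

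NADPH, which both reductases consume, is supplied in part by the pentose phosphate pathway. Of 11 genes for NADPH supply tested, 2 were higher and none lower in edgeR (3 and 1 in DESeq2, and 4 and 2 at an unadjusted p under 0.05): Taldo1, coding for transaldolase (153 to 160 against 57.1 to 59.7 CPM, log2 fold change 1.43 ± 0.10, adjusted p = 0.00511), and G6pdx, coding for the first enzyme of the pathway (260 to 304 against 83.8 to 137 CPM, 1.32 ± 0.19, adjusted p = 0.0171). Among 17 other thioredoxin-fold and repair genes tested, 3 were higher and none lower in edgeR (4 and 1 in DESeq2, and 5 and 1 at an unadjusted p under 0.05), namely Sesn2, a stress-induced sestrin (1.69, adjusted p = 0.0164), and the selenoprotein genes Selenow (1.16, adjusted p = 0.0389) and Selenos (1.02, adjusted p = 0.0180).

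Cystine uptake, glutathione breakdown and export changed in both directions, with 2 of 15 genes tested higher and 3 lower. Anpep, a surface aminopeptidase, was higher at 300, 21.5 and 261 against 1.26, 5.56 and 3.28 CPM (log2 fold change 5.86 ± 1.11, adjusted p = 0.0257), with Myc_Utx 2B far under the other two Myc_Utx lines. Cndp2, a dipeptidase that splits cysteinylglycine, was higher by 0.86 (adjusted p = 0.0310). Ggt1, the gamma-glutamyl transferase that starts glutathione breakdown outside the cell (0, 0.187 and 0.668 against 5.85, 4.45 and 6.56 CPM, -4.26 ± 0.75, adjusted p = 0.0217), Oplah, the oxoprolinase of the same cycle (-4.77 ± 0.69, adjusted p = 0.0169), and the exporter Abcc4 (-1.20, adjusted p = 0.0392) were lower. Slc7a11, the cystine importer, overlapped between groups (log2 fold change 0.99, adjusted p = 0.187). Of 18 further transferases and peroxidases only 5 had enough counts to be tested, and 1, Gstm4, was lower, with no count in any Myc_Utx line and 2.37 to 3.85 CPM in Myc_p53 lines (at least 4.82-fold higher in the latter, adjusted p = 0.0187). None of the 5 genes of lipid peroxide defence passed the edgeR threshold, while 1 passed in DESeq2 and 3 had an unadjusted p under 0.05.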

How the data were processed

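RNA was sequenced from 3 Myc_Utx and 3 Myc_p53 cell lines. The table the authors deposited holds raw counts by Ensembl gene, not normalized, and a transcript length for each. Per the labels' processing notes the tools were Trimmomatic 0.36, STAR 2.5.3a, featureCounts 1.6.3 and DESeq2 1.20.0 with mouse builds, whereas the study's methods name HTSeq and a human build. For 95.9% of genes the coordinates matched GENCODE M21 (GRCm38). Whether strand was used in counting is not given in the sources used here.

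The analysis ran edgeR 4.0.16 under R 4.3.3 (filterByExpr with a minimum count of 10, TMM, quasi-likelihood F test, Benjamini-Hochberg adjustment over 11510 genes), with both groups in 1 fit and no covariate. Standard errors came from the F statistic (absolute log2 fold change over its square root), and intervals are at 95%. The floor was 3 counts per line. Intervals and floors on counts cover counting error only. The common dispersion was 0.112 (biological coefficient of variation 33.4%). Values by line were given for members that passed an adjusted p of 0.05, or that did not overlap and had a log2 fold change beyond 1, and most other members were described by role. Values by line of Txn2, Txnrd1, Prdx5, Gsr, Gpx1, Gsto1 and Sod3 fall outside this rule and were chosen with the values known. Counts by line of the untested Gpx7, Gstt1 and Gstt2 fall outside it too. Other pathway genes were named if they passed an adjusted p of 0.05, at most the 3 largest per direction and list; Slc48a1, Fth1, Blvra, Fech, Slc40a1 and Slc7a11 fall outside this rule and were named after their values were seen. The members and lists were chosen with earlier results of these data known.

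The alternatives dropped the filter, asked for 10 counts or more in each line, or used DESeq2 size factors, total counts only, offsets for transcript length with and without GC content (MASS 7.3.60.0.1, robust fit to natural splines, 5 degrees of freedom), the DESeq2 1.42.0 test, and leaving out each line. Tested on simulated data of this comparison with 11336 genes, the procedure recovered 80.6% of 98 genes changed by 2 on the log2 scale and 20.6% of 97 genes changed by 1, with 3.88% of calls false. Few genes were changed in that simulation, whereas 14.7% of all genes tested were called in the real data. Its counts were drawn from the dispersion trend, without spread between genes around it and without a length trend. These shares therefore need not hold for the real data. Protein sequences were not analysed here.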

Additional observations from a re-analysis of the deposited data

How the results depend on the processing

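Counts of calls moved more than fold changes did. With all 6 lines, the 7 genes higher became 5 (length offsets, with or without GC) to 9 (DESeq2), and the 2 lower became 4 without the low-count filter and 1 with length offsets. Leaving out 1 line gave 0 to 8 genes higher, 0 to 3 lower, 0 to 13 other pathway genes higher against 12, 0 to 12 lower against 9, and a median of 0.256 to 0.395; total counts only gave a median of 0.276. Over all genes, 805 higher became 1268 with DESeq2 and 3 to 836 with a line left out, and 885 lower became 1514 with DESeq2, 585 with length and GC offsets and 1 to 1118 with a line left out. Higher genes made up 47.6% of calls, or 37.3% with total counts only, and the median of all genes moved from -0.012 to -0.23 with no filter. Of the 9 called genes, 6 passed in all 7 alternatives with all lines.

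Signs turned only for genes that were not called. With length offsets, and with length and GC offsets, the log2 fold changes were -0.0174 and -0.000573 for Srxn1, -0.127 and -0.103 for Gsta4, -0.0786 and -0.0677 for Gstp1, -0.0381 and -0.026 for Sod1, and -0.0039 for Prdx1 with the latter. With a line left out, Srxn1 ran from -0.18 to 0.222, Gsta4 from -1.21 to 1.06, Gpx8 from -0.48 to 0.911, Mgst1 from -0.314 to 0.246 and Mgst3 from -0.429 to 0.795. Srxn1 gave -0.18, -0.0146 and -0.00275 without Myc_Utx 2B, Myc_p53 1 and Myc_p53 3, and Gsta4 gave -1.21, -0.241 and -0.148 without Myc_Utx 2B, Myc_p53 1 and Myc_p53 2. Gpx8 gave 0.125 without Myc_Utx 2A and 0.911 without Myc_p53 2, Mgst1 gave 0.136 without Myc_Utx 2B and 0.246 without Myc_p53 2, and Mgst3 gave -0.429 without Myc_Utx 2A. The cause was not tested. Across genes, log2 fold change fell with transcript length (Spearman's rho -0.249, genes not being independent), and the genes described were shorter than all genes tested (median 2683.5 against 4441 bases).

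At 4656103 to 6937497 counts per line and 3 lines per group, a gene not called is not shown to be equal between groups. No paired analysis was possible because the labels number the Myc_Utx lines 2A, 2B and 2D and the Myc_p53 lines 1, 2 and 3, which share fewer than 2 numbers.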
